A study of Bos taurus with 38 samples.

Results

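The liver transcriptome of high-RFI cows was compared with that of low-RFI cows over both dairy breeds of the study at once, with one common effect of RFI. All 38 libraries of the series, from 19 of 19 cows, entered the comparison, and the counts of the 2 libraries of a cow were summed. The 9 high-RFI cows carry the sample label of low feed efficiency, and the 10 low-RFI cows that of high feed efficiency. In the study's table of cows, the column headed RFI group holds the same words as this label, so that Low there means high-RFI in the present text, and in each breed the RFI values of these cows were on average the higher ones. The genes described in detail are those with the smallest p for the common effect, those with the same or opposite directions in the breeds, and the 89 genes of the 2 DEG lists that the study made for Holsteins and for Jerseys.

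Residual feed intake is the feed a cow eats beyond what its production and body weight predict, so a high-RFI cow uses feed less efficiently. The liver of a lactating cow makes glucose from propionate and amino acids, oxidises or re-esterifies fatty acids released from body fat, and makes ketone bodies, bile acids and most plasma proteins. It also holds resident and circulating immune cells, whose RNA is part of any biopsy.

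The groups were 4 high-RFI Holsteins, 5 low-RFI Holsteins, 5 high-RFI Jerseys and 5 low-RFI Jerseys, in parities 1 to 3. Each cow gave one liver biopsy on a control diet low in concentrate (C) and one on a high concentrate diet (HC), so every group was measured on both diets. Cows of parity 1, 2 and 3 numbered 1, 2 and 1 among the high-RFI Holsteins and 2, 1 and 2 in each of the other groups. The summed counts were 36351245 to 44567379 read pairs on genes per cow, with overlapping ranges in the groups. Of 24616 Ensembl genes, 11967 reached 1 CPM (read pairs of a gene scaled to the total on genes) in at least 9 cows and were tested. Of the 89 listed genes, 86 were among them, 69 of the Holstein list and 17 of the Jersey list. The listed genes REC8, TMEM102 and C19orf81 did not reach the limit. Symbols were known only for listed genes, 77 of the 89, so other genes are given by Ensembl identifier or only counted. CYP7A1, an enzyme known from hepatocytes, lay between 65.3 and 621 CPM in the 19 cows, while the hepatocyte markers albumin and apolipoproteins could not be paired with identifiers.

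The libraries labelled as cow 10 and cow 17 stood apart in genes that are on or off in an animal. Counts of 31 genes fell into an on and an off state among the Jersey libraries. The C and HC libraries labelled cow 10 were alike in 25 of them, and so were those labelled cow 17, whereas the C libraries of both labels were alike in all 31 genes and the HC libraries as well. Among the other 8 Jerseys, the libraries of a cow were alike in 28 to 31 genes. Over all genes the order was the other one. The deviations from the group means correlated with r = 0.10 between the libraries labelled cow 10 and 0.235 between those labelled cow 17, against -0.023 between the C libraries of both labels and 0.051 between the HC libraries. Both libraries labelled cow 17 correlated best with each other, but both labelled cow 10 correlated best with a library of another label. Within a label, r was lower still for the Jerseys cow 5 (0.072) and cow 14 (-0.118). The order of r is therefore weak evidence on the labels. Since each cow was sampled once per diet, a mix-up that makes both C libraries those of one cow would also have to exchange diet labels, and whether one took place cannot be told from these values. Both labels belong to low-RFI Jerseys, so the RFI groups hold the same libraries either way. The labels differ in parity, selection block and RFI value, which enter the models, pairs and slopes. The labels were used as given. Counts of genes and the fold changes or slopes of several genes are also given without both cows. The printed levels, pairs and exact tests include them.

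No gene was a DEG for the common effect of RFI. With breed and parity in edgeR's quasi-likelihood model, 0 of 11967 genes (0%) had a Benjamini-Hochberg adjusted p under 0.05, and the smallest adjusted p was 0.785. An unadjusted p under 0.05 was found for 515 genes (4.3%), 236 with higher and 279 with lower counts in the high-RFI cows. DESeq2 called 2 genes, ARHGEF37 (DESeq2 adjusted p = 0.0145) and MFSD1 (DESeq2 adjusted p = 0.022), with 542 genes at an unadjusted p under 0.05. The limma-voom fit on the 38 libraries with the cow as a replicate block called 0, with 584. The common log2 fold changes (high- minus low-RFI) lay between -0.19 and 0.16 for the middle 90% of genes, and the median standard error (SE) was 0.0776.

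Over all genes, the breeds had the same and opposite directions about equally often. The log2 fold changes, fitted in each breed alone on separate cows, had the same sign in 6059 genes (50.6%). An unadjusted p under 0.05 in each breed was found for 14 genes with the same direction (0.117%), 7 with positive and 7 with negative fold changes, and for 24 genes with opposite directions (0.201%). Of the latter, 17 had a positive fold change in Holsteins and a negative one in Jerseys, and 7 the reverse. In the single breeds, 551 genes (4.6%) reached an unadjusted p under 0.05 in Holsteins and 461 (3.85%) in Jerseys, and 0 an adjusted p under 0.05 in edgeR. No gene (0%) separated the RFI groups without overlap in both breeds, neither in one direction nor in opposite directions. Within a single breed, 227 of the 11967 genes separated the groups in the Holsteins and 69 in the Jerseys. Which of the counts of 14 and 24 genes, with the same and opposite directions, was the larger one depended on the libraries used. Within the C diet 25 genes had the same and 17 opposite directions with an unadjusted p under 0.05 in each breed, and within the HC diet 7 and 17. The 14 genes became 9 without cow 2, a high-RFI Holstein, and 4 without cow 17, and the 24 genes became 13 without cow 2, 14 without cow 11, a low-RFI Holstein, and 37 without cow 17. Without cows 10 and 17 together, 12 genes had the same and 37 opposite directions.

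**Figure D1:**
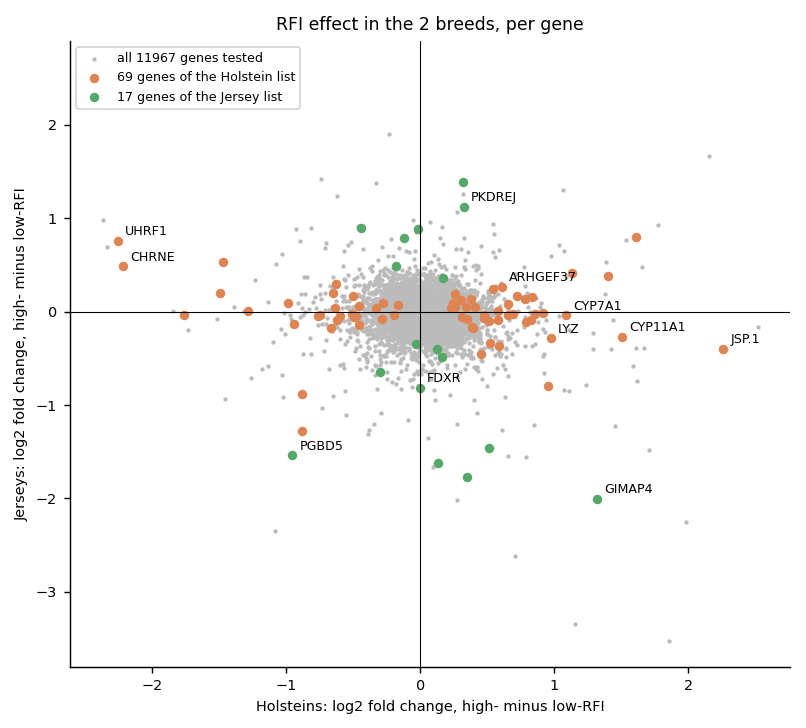
The log2 fold change (high- minus low-RFI) of each gene in Holsteins (x axis) and in Jerseys (y axis), for the 11967 genes tested in grey, 69 genes of the Holstein list in orange and 17 genes of the Jersey list in green. The orange points spread along the Holstein axis and the green points along the Jersey axis, and 40 of the 86 coloured genes have the same sign in both breeds.

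ARHGEF37, a guanine nucleotide exchange factor, had the smallest p for the common effect. Its levels were 11.9, 14.9, 13.6 and 12.7 CPM in the high-RFI Holsteins and 9.26, 8.14, 9.21, 5.85 and 9.27 CPM in the low-RFI Holsteins. In the Jerseys, they were 12.8, 13.6, 14.6, 14.3 and 12.1 CPM in the high-RFI group and 10.8, 11.5, 12.7, 11.6 and 9.51 CPM in the low-RFI group. Every high-RFI Holstein was above every low-RFI Holstein, and in the Jerseys one low-RFI cow, labelled cow 10, lay above the lowest high-RFI cow. The common log2 fold change was 0.42 (SE 0.0823, edgeR adjusted p = 0.785), with 0.61 in Holsteins and 0.27 in Jerseys. The unadjusted edgeR p was 7.7e-05, and an exact permutation test over the 31752 regroupings of the cows within breeds gave a two-sided p of 6.3e-05, where 3.15e-05 is the smallest it can give. This test leaves the selection blocks of the study aside. The high-RFI cow had the higher level in 9 of the 9 complete pairs of cows that the study matched in selection blocks, and 39 genes (0.326%) had all 9 pairs in one direction. An exact permutation within these pairs gave a two-sided p of 0.0039, the smallest that 9 pairs can give, and 0.0625 for the 5 Jersey pairs alone, the smallest that 5 pairs can give. ARHGEF37 is a gene of the Holstein list, chosen by the study on these Holsteins, and was singled out here by its common p over the cows of both breeds, so that the values of neither breed are independent evidence. The log2 fold change was 0.46 with the C libraries alone, 0.40 with the HC libraries alone and 0.43 without cows 10 and 17.

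MFSD1, a lysosomal transporter of the major facilitator superfamily, followed with the next smallest p. The high-RFI Holsteins had 161, 154, 154 and 133 CPM and the low-RFI Holsteins 131, 130, 123, 116 and 125 CPM. The high-RFI Jerseys had 151, 132, 135, 130 and 148 CPM against 126.2, 142, 107, 119 and 120 CPM in the low-RFI Jerseys. The groups did not overlap in the Holsteins, and in the Jerseys one low-RFI cow lay within the high-RFI range. The common log2 fold change was 0.23 (SE 0.0482, edgeR p = 1.7e-04, adjusted p = 0.785, exact permutation p = 8.5e-04), with 0.26 in Holsteins and 0.19 in Jerseys, and the high-RFI cow was higher in 8 of 9 pairs. The exact permutation within pairs gave p = 0.0078 over the 9 pairs and 0.125 over the 5 Jersey pairs. MFSD1 is also of the Holstein list and was singled out in the same way.

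CYP3A4, a cytochrome P450 that oxidises drugs and steroids, was the gene of the Jersey list with the smallest common p. Its levels were 127, 106, 110 and 114 CPM in the high-RFI Holsteins and 97.0, 116, 99.2, 103 and 105 CPM in the low-RFI Holsteins. The high-RFI Jerseys had 137, 125, 137, 129 and 150 CPM and the low-RFI Jerseys 113, 127, 106, 89.7 and 97.4 CPM. The groups overlapped in both breeds, by one low-RFI cow each. The common log2 fold change was 0.26 (SE 0.0627, edgeR p = 6.0e-04, adjusted p = 0.992, exact permutation p = 0.0013). In the Holsteins the fold change was 0.17, with an exact permutation p of 0.103, and the gene was singled out by a p that includes these cows. Related P450 genes are similar in sequence, and how read pairs shared between them were counted could affect this gene.

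PKDREJ, a polycystin-family protein known from sperm, and PGBD5, a gene derived from a transposase, had larger fold changes at low levels. PKDREJ lay between 4.53 and 5.16 CPM in the high-RFI and between 2.27 and 5.49 CPM in the low-RFI Holsteins, and between 1.53 and 7.53 against 1.41 and 3.82 CPM in the Jerseys. Its common log2 fold change was 0.76 (SE 0.194, edgeR p = 0.0010, adjusted p = 0.992), and an exact permutation test gave p = 0.019. PGBD5 lay between 0.610 and 3.2 CPM in the high-RFI and between 2.06 and 3.88 CPM in the low-RFI Holsteins, and between 0.305 and 2.01 against 1.44 and 3.15 CPM in the Jerseys. Its common log2 fold change was -1.19 (SE 0.324, edgeR p = 0.0018, adjusted p = 0.992, exact permutation p = 0.0026). Both are of the Jersey list, chosen on these Jerseys, which enter the common tests. Their Holstein fold changes were 0.32 and -0.95, with exact permutation p of 0.127 and 0.103. The ranges of the RFI groups overlapped in each breed for both genes.

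**Figure D2:**
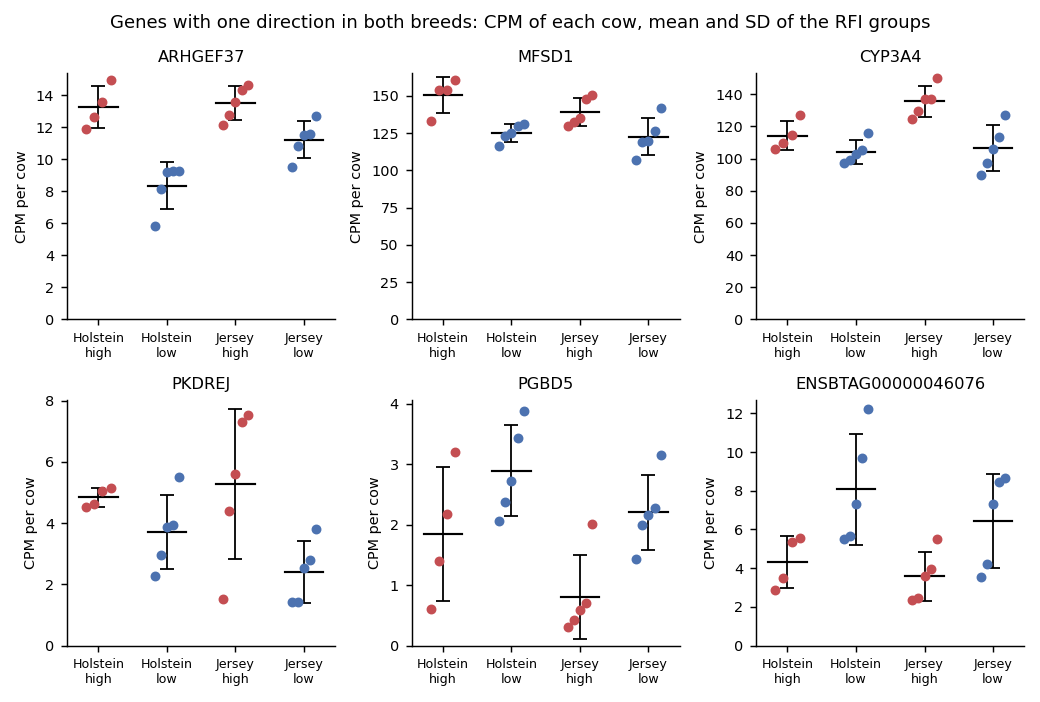
CPM of each of the 19 cows (points; red for high-RFI, blue for low-RFI) with the group mean and SD (black lines) for 6 genes whose log2 fold change had the same sign in both breeds. ARHGEF37 and MFSD1, of the Holstein list chosen on these Holsteins, separate the RFI groups in the Holsteins. In the other panels the groups overlap in both breeds.

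Of the 14 genes with the same direction and an unadjusted p under 0.05 in each breed, 3 were listed genes, all of the Holstein list: ARHGEF37, MFSD1 and ENSBTAG00000046076, an uncharacterised gene. ENSBTAG00000046076 had the same log2 fold change of -0.88 in both breeds. Its levels were 3.51, 5.55, 2.85 and 5.34 CPM in the high-RFI and 5.51, 9.71, 7.29, 5.67 and 12.2 CPM in the low-RFI Holsteins. In the Jerseys, the levels were 3.95, 5.48, 3.62, 2.47 and 2.37 CPM against 8.43, 3.53, 8.68, 4.22 and 7.31 CPM. The groups overlapped in both breeds, and the common log2 fold change was -1.22 with the C libraries alone and -0.46 with the HC libraries alone. Among genes outside the lists, ENSBTAG00000002391 had the smallest common p of those with a negative fold change, and ENSBTAG00000011403 of those with a positive one. The first had a log2 fold change of -0.44 (SE 0.0944, edgeR p = 2.0e-04, adjusted p = 0.785, exact permutation p = 6.9e-04). The second had 0.28 (SE 0.0670, edgeR p = 6.8e-04, adjusted p = 0.992, exact permutation p = 9.1e-04). Both were picked by their p among all genes tested, and the exact permutation uses the same cows, so neither p is independent evidence. ENSBTAG00000002391 lay between 0.883 and 1.09 CPM in the high-RFI and between 1.32 and 1.90 CPM in the low-RFI Holsteins, without overlap, and between 0.934 and 1.39 against 1.14 and 1.98 CPM in the Jerseys. These levels are near the 1 CPM limit for testing, and the low-RFI cows, all above it, are enough to pass it.

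The listed genes were then followed from the breed in which the study chose them into the other breed, whose cows took no part in the choice. Of the 69 genes of the Holstein list, 33 (47.8%) had the same sign in the Jerseys, and 6 (8.70%) had an unadjusted p under 0.05 there, against 3.85% of all genes. These were ARHGEF37, MFSD1 and ENSBTAG00000046076 in the same direction, and the lysozyme gene LYZ, the T-cell receptor component CD3D and 1 uncharacterised gene in the opposite one. The median absolute log2 fold change of the Holstein list was 0.62 in Holsteins and 0.10 in Jerseys, where it was 0.07 over all genes. Of the 17 genes of the Jersey list, 7 (41.2%) had the same sign in the Holsteins and 0 had an unadjusted p under 0.05 there. Their median absolute log2 fold change was 0.88 in Jerseys and 0.18 in Holsteins. In the common model, 34 of the 86 genes had an unadjusted p under 0.05, 18 with positive and 16 with negative fold changes, and 52 had an unadjusted p under 0.05 for a difference in the RFI effect between the breeds, against 5.28% of all genes. Both contrasts include the cows on which the lists were chosen, so neither count is independent evidence. Of the pathways and cell types considered, no list had more than 28.6% of its genes paired with an identifier, and the listed genes are therefore grouped by their known roles, in groups formed with their values known.

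The 5 listed genes of membrane transport had one direction in both breeds, as did 40 of the 86 listed genes and 50.6% of all genes. All 5 are of the Holstein list, chosen on these Holsteins. They had an unadjusted p under 0.05 for the common effect, as did 34 of the 86 listed genes and 4.3% of all genes, and 0 had an adjusted p under 0.05. Besides MFSD1, positive fold changes were found for SLC17A1, a transporter of phosphate and urate (common log2 fold change 0.39, SE 0.142), and SLC35A5, of the nucleotide sugar transporter family (0.19, SE 0.0681). Negative ones were found for SLC20A1, a sodium-dependent phosphate transporter (-0.37, SE 0.131), and SLC6A11, a transporter of the neurotransmitter GABA (-0.27, SE 0.112). Their Jersey fold changes were small, between -0.14 for SLC6A11 and 0.17 for SLC17A1 in these 4 genes, with exact permutation p of 0.24 to 0.87. SLC20A1 in particular lay between 28.1 and 35.7 CPM in the high-RFI Holsteins and between 49.5 and 63.7 CPM in the low-RFI Holsteins, without overlap, but between 29.5 and 44.7 CPM against 32.5 and 50.2 CPM in the Jerseys. For SLC20A1 the difference between the fold changes of the breeds was 0.74 (edgeR adjusted p = 0.634), and its common log2 fold change was -0.51 with the C libraries alone and -0.22 with the HC libraries alone. For SLC35A5 these values were 0.11 and 0.26.

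The 8 listed genes of fat synthesis and fatty acid oxidation had the same sign in the breeds in 6 cases, as did 40 of the 86 listed genes and 50.6% of all genes. All 8 are of the Holstein list, so that larger fold changes in the Holsteins were set by the choice of the genes. For ACACA, which makes malonyl-CoA for fatty acid synthesis, the log2 fold change was 0.48 in Holsteins and -0.07 in Jerseys. ELOVL6, a fatty acid elongase, had 0.66 and 0.08, and MBOAT2, which acylates lysophospholipids, had 1.40 and 0.38. DGAT2, which forms triglycerides from diglycerides, had -0.50 and -0.06. The peroxisomal enzymes HSD17B4, HACL1 and ACOT8 had positive fold changes in both breeds, of 0.34, 0.38 and 0.58 in Holsteins and 0.05, 0.13 and 0.01 in Jerseys. BDH2, a dehydrogenase named for hydroxybutyrate, had opposite signs. Its levels were 56.3, 53.0, 56.6 and 53.1 CPM in the high-RFI and 83.6, 71.8, 92.4, 87.2 and 83.2 CPM in the low-RFI Holsteins, without overlap. In the Jerseys they were 57.5, 52.6, 35.3, 57.0 and 29.8 CPM against 33.4, 34.8, 31.4, 55.9 and 33.5 CPM, with wide overlap. Of these 8 genes, 4 (MBOAT2, DGAT2, HSD17B4 and HACL1) had an unadjusted p under 0.05 for the common effect, against 34 of the 86 listed genes and 4.3% of all genes, and the Holsteins that chose them enter this test.

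Among the genes of sterol and P450 metabolism, CYP3A4 and NR1H4 had the same sign in both breeds. FDXR had it in name only, with a Holstein log2 fold change of -0.0029 (SE 0.238). Of the 86 listed genes, 40 had the same sign. NR1H4, the bile acid receptor FXR, had a log2 fold change of 0.26 in Holsteins and 0.05 in Jerseys. CYP7A1, the rate-limiting enzyme of bile acid synthesis, had 1.09 and -0.04, and CYP11A1, which cleaves the side chain of cholesterol, had 1.5 and -0.27. NR1H4, CYP7A1 and CYP11A1 are of the Holstein list, and CYP3A4 and FDXR of the Jersey list. Larger fold changes in the breed of the list were set by the choice of the genes. FDXR, the reductase that feeds electrons to mitochondrial P450 enzymes, lay between 4.03 and 5.07 CPM in the high-RFI and between 7.62 and 8.53 CPM in the low-RFI Jerseys, without overlap. In the Holsteins FDXR lay between 4.50 and 6.28 CPM and between 4.32 and 8.53 CPM. The high-RFI cow had the higher FDXR level in 3 of the 9 pairs, and all 3 were Holstein pairs. The common log2 fold change of FDXR was -0.45 (SE 0.148, edgeR adjusted p = 0.992, exact permutation p = 0.015), against -0.81 in the Jerseys. The Jerseys that chose FDXR enter these tests. The difference between its fold changes in the breeds had an edgeR adjusted p of 0.723.

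The remaining metabolic and regulatory genes were mixed. The counts of equal signs below stand beside 40 of the 86 listed genes and 50.6% of all genes. CTH and ALDH18A1, of cysteine and proline synthesis, had opposite signs in the breeds (-0.63 and 0.35 in Holsteins, 0.04 and -0.08 in Jerseys). Of 4 genes of mitochondria and energy transfer, 3 had the same sign, among them the creatine kinase CKB with 0.55 in Holsteins and 0.24 in Jerseys. Of 12 genes of growth signalling and small GTPases, 3 had the same sign (ARHGEF37, ABR and PCSK6), while SOCS2, an inhibitor of growth hormone signalling, had 0.92 and -0.02, and the growth factor receptor FGFR2 had -0.46 and 0.06. Of 6 tested genes of chromatin and transcription, 4 had the same sign. TAF6, a subunit of the general transcription factor TFIID, had -0.28 in Holsteins and -0.08 in Jerseys, and the high-RFI cow was lower in all 9 pairs. All 9 pairs went one way in 39 genes (0.326%), and TAF6 is of the Holstein list, chosen on these Holsteins. INTS7, a subunit of the Integrator complex, had 0.25 and 0.09. UHRF1, which guides maintenance of DNA methylation, had -2.26 and 0.76.

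**Figure D3:**
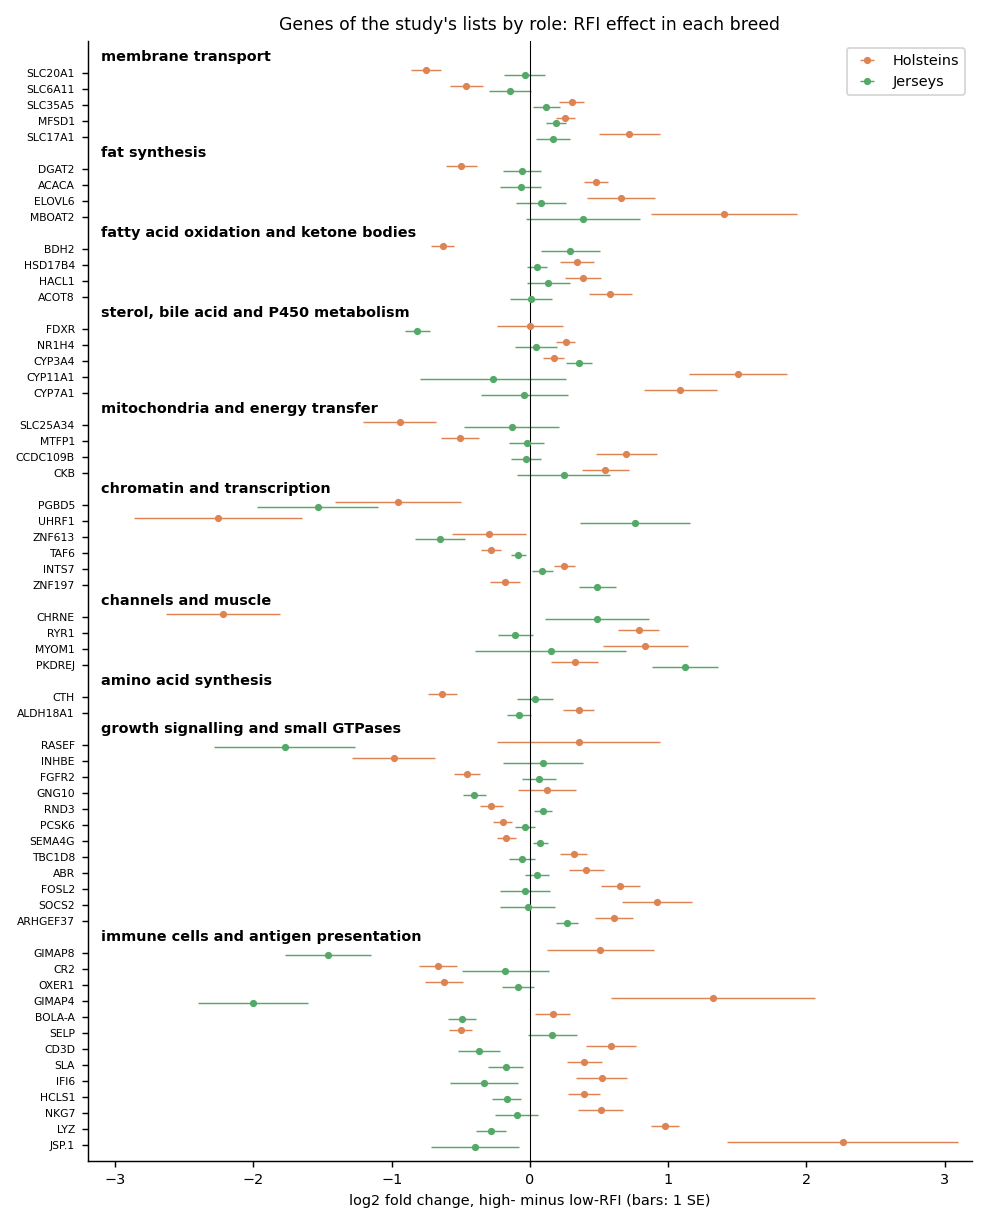
The log2 fold change (high- minus low-RFI) of the listed genes with a known role in Holsteins (orange) and Jerseys (green), with bars of 1 SE, grouped by role. The 5 transport genes lie on the same side of 0 in both breeds, and 11 of the 13 immune genes lie on opposite sides.

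Of the 13 listed genes assigned to immune cells and antigen presentation, 11 differed in sign between the breeds, as did 46 of the 86 listed genes, while 50.6% of all genes had the same sign. An unadjusted p under 0.05 for the difference in the RFI effect was found for 12 of the 13, for 52 of the 86 listed genes and for 5.28% of all genes. The 13 genes were chosen by the study in one breed each and grouped here with their values known, so that these counts say nothing about immune genes in general. In 10 of the 11 the log2 fold change was positive in Holsteins and negative in Jerseys, and the exception was the adhesion molecule SELP (-0.50 and 0.16). In bulk liver, fewer cells of a type and less RNA per cell cannot be told apart. LYZ, the lysozyme of macrophages and neutrophils, had 45.4, 34.2, 36.0 and 28.8 CPM in the high-RFI Holsteins and 27.5, 20.8, 17.4, 13.1 and 15.5 CPM in the low-RFI Holsteins. In the Jerseys, LYZ had 12.8, 12.8, 14.4, 16.7 and 15.7 CPM in the high-RFI and 11.3, 17.3, 20.6, 19.6 and 19.7 CPM in the low-RFI group. The groups did not overlap in Holsteins and overlapped in Jerseys. The log2 fold changes were 0.98 and -0.28, and their difference of -1.23 (SE 0.283) had an edgeR adjusted p of 0.634.

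CD3D, a component of the T-cell receptor complex, had 4.45, 5.52, 5.24 and 4.56 CPM in the high-RFI Holsteins and 3.77, 2.22, 3.02, 3.94 and 3.15 CPM in the low-RFI Holsteins. The high-RFI Jerseys had 3.76, 3.19, 3.06, 3.33 and 3.26 CPM and the low-RFI Jerseys 4.58, 6.74, 3.48, 3.74 and 3.39 CPM. The groups again did not overlap in Holsteins and overlapped in Jerseys. The log2 fold changes of CD3D were 0.59 and -0.37 (difference -1.03, edgeR adjusted p = 0.634). NKG7 of cytotoxic cells (0.51 and -0.10), HCLS1 of blood cells (0.39 and -0.17) and the interferon-induced IFI6 (0.52 and -0.33) had the same pattern. Of 13 T and NK cell markers, only CD3D and NKG7 could be paired with identifiers, and 1 of 7 B cell markers, CR2, whose fold change was negative in both breeds (-0.66 and -0.18). The part of immune cell numbers in these results was not tested.

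GIMAP4 and GIMAP8, GTPases of lymphocytes, are of the Jersey list and had log2 fold changes of -2.0 and -1.46 in Jerseys against 1.32 and 0.51 in Holsteins. GIMAP4 lay between 6.14 and 27.4 CPM in the high-RFI and between 28 and 68.2 CPM in the low-RFI Jerseys, but between 7.89 and 96.3 CPM and between 4.37 and 75.9 CPM in the Holsteins. BOLA-A, a class I histocompatibility gene, had 0.16 in Holsteins and -0.49 in Jerseys, and JSP.1 of the same family had 2.26 and -0.40. Genes of this family differ between animals and resemble each other, so their counts are uncertain.

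For the difference in the RFI effect itself, the edgeR count at an adjusted p under 0.05 was 0, while 632 (5.28%) had an unadjusted p under 0.05 and the smallest adjusted p was 0.451. DESeq2 called 2 genes and had 654 at an unadjusted p under 0.05. The smallest p among listed genes was that of CEACAM19, of the carcinoembryonic antigen family of adhesion molecules. It had 1.09, 1.46, 2.17 and 1.2 CPM in the high-RFI and 2.87, 3.18, 5.57, 3.54 and 2.70 CPM in the low-RFI Holsteins, without overlap, and lay between 1.55 and 2.22 CPM and between 0.814 and 2.15 CPM in the Jerseys. The log2 fold changes were -1.49 and 0.20 (difference 1.59, SE 0.297, edgeR adjusted p = 0.451), and the adjusted p was 0.0044 with DESeq2. CEACAM19 is of the Holstein list, and the Holsteins on which it was chosen enter both tests, so neither p is independent evidence. CHRNE, a subunit of the muscle acetylcholine receptor and also of the Holstein list, had -2.22 in Holsteins and 0.49 in Jerseys. It lay above 16 CPM in 4 of 5 low-RFI Holsteins and in 1 high-RFI Jersey, and between 3.57 and 4.81 CPM in the other 14 cows.

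**Figure D4:**
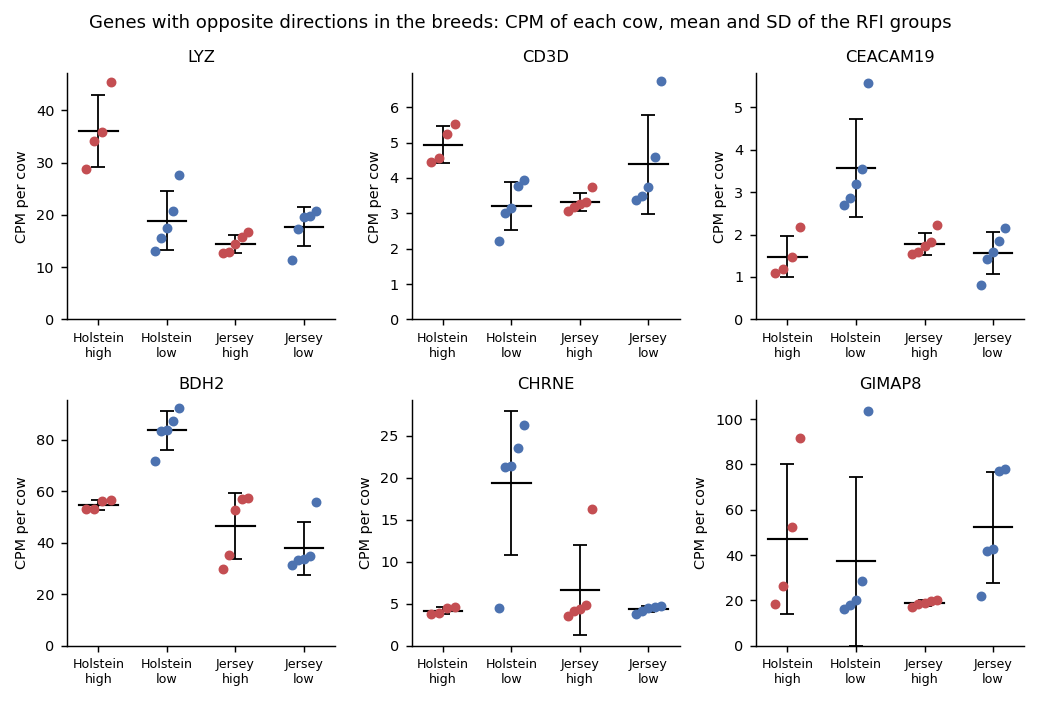
CPM of each of the 19 cows (points; red for high-RFI, blue for low-RFI) with the group mean and SD (black lines) for 6 genes whose log2 fold change had opposite signs in the breeds. LYZ, CD3D, CEACAM19 and BDH2 separate the RFI groups in the Holsteins, as do 227 of the 11967 genes tested, while their Jersey groups overlap. These genes are of the Holstein list, chosen on these Holsteins, so this contrast between the breeds was favoured by the choice.

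The RFI value that the study assigned to each cow was used as a covariate in place of the group, with the slope given per SD of the RFI value over the 19 cows. The RFI groups did not overlap in this value in the Jerseys, but one low-RFI Holstein had a higher value than the lowest of the high-RFI Holsteins. For the slope, the number of edgeR genes at an adjusted p under 0.05 was 0, and the unadjusted p was under 0.05 for 487 (4.07%), 219 positive and 268 negative, while DESeq2 called 0 and had 500. The genes with the smallest p were ENSBTAG00000011403 (0.16 log2 units per SD, SE 0.0327), ARMC10, an armadillo-repeat protein (-0.14, SE 0.0303), and MFSD1 (0.11, SE 0.0272) among those named here, each with an edgeR adjusted p of 0.999. ARHGEF37 had a slope of 0.18 (SE 0.0557). Without cow 4, a high-RFI Jersey, 1 gene had an adjusted p under 0.05 for the slope (smallest adjusted p = 0.0478).

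ENSBTAG00000011403 had 9.31, 9.94, 12.2 and 8.91 CPM in the high-RFI and 7.38, 8.47, 9.74, 7.53 and 7.28 CPM in the low-RFI Holsteins. The high-RFI Jerseys had 11.7, 10.2, 11.7, 10.2 and 11.5 CPM and the low-RFI Jerseys 7.95, 8.91, 8.60, 9.55 and 10.4 CPM. One low-RFI cow in each breed lay within the high-RFI range. ARMC10, of the Jersey list chosen on these Jerseys, lay between 9.63 and 13.1 CPM in the high-RFI and between 13.3 and 15.4 CPM in the low-RFI Jerseys, without overlap. The lowest level was in the cow assigned the highest RFI value. That cow shares breed, parity and label with another cow, so this assignment rests on the order of the cow numbers. In the Holsteins, ARMC10 lay between 13.6 and 16.2 CPM and between 14.5 and 16 CPM, and its log2 fold change was -0.03 there against -0.35 in the Jerseys.

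The RFI value and the RFI group carry much the same information, and the value was therefore also fitted within the RFI groups, with the group effect of each breed in the model. In this edgeR fit the number of genes at an adjusted p under 0.05 was 0, and 333 (2.78%) had an unadjusted p under 0.05. DESeq2 was not run on it. For MFSD1, ENSBTAG00000011403 and ARHGEF37 the slopes within groups were 0.06 (SE 0.0501), 0.12 (SE 0.0675) and 0.01 (SE 0.0806), and that of ARMC10 was -0.12 (SE 0.0559), near its slope over all cows. Each had an edgeR adjusted p of 0.999, so for these genes a relation to the RFI value within groups was not detectable. Of the 86 listed genes, 23 had an unadjusted p under 0.05 for the slope over all cows, 11 of the Holstein and 12 of the Jersey list, again on the cows from which the lists came.

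**Figure D5:**
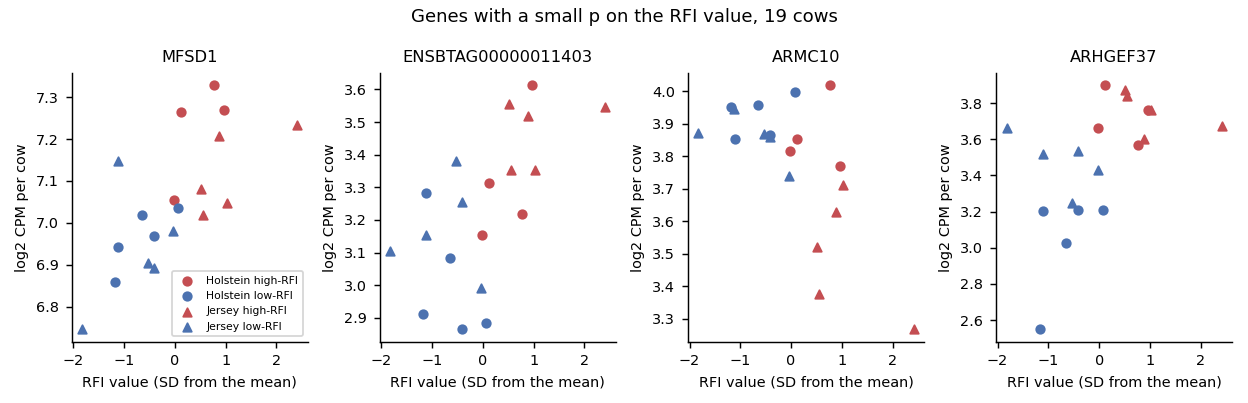
Log2 CPM of each of the 19 cows (y axis) against its RFI value in SD from the mean (x axis) for 4 genes, with circles for Holsteins, triangles for Jerseys, red for high-RFI and blue for low-RFI cows. MFSD1, ENSBTAG00000011403 and ARHGEF37 are higher and ARMC10 is lower towards high RFI values, with slopes of 0.11, 0.16, 0.18 and -0.14 log2 units per SD.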

How the data were processed

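RNA-Seq of 38 liver biopsies (TruSeq Stranded mRNA) gave the deposited counts, which the authors made by trimming with cutadapt, alignment with STAR to UMD3.1 with Ensembl annotation and HTSeq; they are read pairs per gene, not normalized. The STAR version is given as 2.3.0 in the submitters' processing notes. The strand setting of HTSeq is not given in the sources used here, so reads of overlapping antisense genes may be mixed. The samples were grouped by their feed efficiency label. The RFI values and selection blocks came from the study's table of cows. The cows are numbered here in ascending order of the cow numbers in that table, with the same breed, parity and feed efficiency label. Cows that share all of these traits are not told apart by them, and the slopes and pairs depend on the match.

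The counts of a cow were summed. Genes at 1 CPM in at least 9 cows were tested in R 4.3.3 with edgeR 4.0.16 (TMM, quasi-likelihood F-test, two-sided, Benjamini-Hochberg adjustment). Alternatives used DESeq2 1.42.0 (Wald test) and limma 3.58.1 (voom with the cow as block). The SE is the absolute log2 fold change divided by the square root of F. Log2 CPM used a prior count of 2. Single genes were tested by exact permutation within breeds and, for the first ones, within the 9 complete selection pairs. The procedure was tested on simulated data. Identifiers were paired with symbols by the study's gene lists only.

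The members, lists and tests were chosen with earlier results of these data known, the roles after the values were seen. Considered for naming were up to 15 genes by common p, 12 with the same and 5 with opposite directions in both breeds, 5 by the RFI value, the study's candidates and up to 4 genes per list. Most of those without a symbol were left out, also some with a smaller p for the RFI value than MFSD1. Of genes without a symbol, only ENSBTAG00000002391, ENSBTAG00000011403 and ENSBTAG00000046076 are described. FBP2 could not be paired and was not analysed here. Cows are the replicates; all were sampled as separate animals. The pairing of the C and HC libraries of a cow comes from the labels; 31 of 38 libraries correlated best with the other library of their own cow. No pair was a duplicate, with a chi-square per degree of freedom of at least 13.8. Counts of 17472750 to 24478289 read pairs per library set the precision, and genes near 1 CPM are the least precise.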

Additional observations from a re-analysis of the deposited data

Results flagged for a closer look

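Among 29 genes checked in 4 groups each, 8 of 116 groups had a single cow far from the others (Dixon's gap over range of the log2 CPM), and chance flags about 1 in 20 groups. ARHGEF37 was lowest in low-RFI Holstein cow 16, at 5.85 CPM against 8.14 to 9.27 in the others (0.717), and without that cow the common log2 fold change was 0.37. FDXR was highest in low-RFI Holstein cow 1, at 8.53 against 4.32 to 4.97 CPM (0.796). ZNF613 was highest in high-RFI Holstein cow 15, at 11.4 against 6.23 to 6.57 CPM (0.913). In high-RFI Jersey cow 3, SLC17A1 was lowest with 156 against 201 to 212 CPM (0.830) and BOLA-A with 14.3 against 18.3 to 20.2 CPM (0.711). CHRNE was lowest in low-RFI Holstein cow 6, at 4.50 against 21.2 to 26.3 CPM (0.878), and highest in high-RFI Jersey cow 4, at 16.2 against 3.57 to 4.81 CPM (0.804). BDH2 was highest in low-RFI Jersey cow 14, at 55.9 against 31.4 to 34.8 CPM (0.822).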

How the results depend on the processing

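The count of 0 DEGs for the common effect was the same under 31 of 32 alternatives, with 406 to 794 genes at an unadjusted p under 0.05, and was 2 with the DESeq2 Wald test. For the slope on the RFI value it was the same under 29 of 30, with 0 to 1 when each cow was left out. For the difference between breeds it was the same under 28 of 30, 2 with the DESeq2 Wald test and 4 for the 38 libraries taken as independent. With the cow as a replicate block, where the estimated correlation of the paired libraries was 0.12, the 3 counts were 0, 0 and 0. Without cows 10 and 17 they were 0 as well, with 575, 423 and 779 genes at an unadjusted p under 0.05. The common log2 fold changes were then 0.20 for MFSD1, 0.24 for CYP3A4, 0.66 for PKDREJ, -1.12 for PGBD5 and -0.38 for FDXR. The slopes on the RFI value were 0.097 for MFSD1, 0.14 for ENSBTAG00000011403 and -0.13 for ARMC10. The alternatives to the fits of single breeds and of the value within groups, the fits at 1 CPM in 1 or more cows and the permutation within selection pairs were chosen after seeing the data. The 14 genes with the same direction and an unadjusted p under 0.05 in each breed became 25 with the C libraries alone, 7 with the HC libraries alone, 12 without cows 10 and 17, 9 without cow 2, a high-RFI Holstein, 4 without cow 17 and 4 to 20 when each cow was left out. The share of genes with the same sign was 48.2% to 52.8% over 24 alternatives. No followed fold change, of 20 genes for the common effect, 3 for the slope and 11 for the difference, changed sign under any alternative. These genes were chosen by their results on the same cows, which favours a stable sign, so this is no independent evidence. ARHGEF37 and MFSD1 passed an adjusted p of 0.05 with DESeq2 only, CEACAM19 with DESeq2 and without the block, and CHRNE without the block. The causes were not tested.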
